A study of Mus musculus with 10 samples.

Results

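The genes examined were 38 genes of the synaptic vesicle and its release machinery, chosen by name from a list, of 48961 genes with counts. They were measured by RNA-seq in YFP-positive cells sorted from the mouse spinal cord at e10.5, an age before motor neurons (MNs) form working synapses, in 5 control and 5 cdKO samples. Control samples were Olig2-Cre+/-, Rosa26R-YFP+/- with a floxed and a wild-type copy of each Onecut gene (Oc1+/Flox and Oc2+/Flox). The cdKO (conditional double knockout) samples were Olig2-Cre+/-, Rosa26R-YFP+/-, Oc1-/Flox and Oc2-/Flox, so both groups carried the Cre driver, the YFP reporter and a floxed allele of each gene. Oc1 and Oc2 are transcription factors of developing MNs, and in cdKO samples they are lost from the Olig2 lineage and reduced to a single floxed allele elsewhere. The Olig2 lineage holds MN progenitors, MNs and cells of other types such as V3 interneurons, so YFP marks more than MNs. The labels do not say whether a sample was an embryo or a pool, and all p-values therefore measure the spread between these samples.

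In a mature nerve terminal, vesicles loaded with transmitter are docked and primed at the active zone by scaffold and priming proteins such as RIM, Munc13, Bassoon and Piccolo. Fusion is driven by the SNARE proteins of the vesicle (synaptobrevins) and the plasma membrane (syntaxin and SNAP-25), held ready by complexins and triggered by calcium-binding synaptotagmins. Many of these proteins are made before synapses form, and SNARE-driven fusion also serves membrane addition in growing axons.

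Each sample had 63932395 to 107709534 counts, in which a read was counted on every exon bin (non-overlapping piece of exon) that it crossed. Values are given as CPM, the counts scaled to a common library size by edgeR's TMM method, and levels are ranked between genes only as CPM per kb of summed bins, while counts of genes past 1 or 10 CPM describe detection. The sample labelled cdKO replicate 5 stood apart: its TMM factor was 0.717 against 0.946 to 1.17 in the other samples, and it had counts on 198569 bins against 243970 to 271591. For 24 of 34 of the genes examined in which this could vary, its counts also lay nearer the 3′ end than in any other sample. Values are given below for Syt11, Syp, Unc13b and Snap91. Fold changes that move by over 1.5 times without it are therefore given both ways. Of the targeted family, Oc3, which the Onecut factors are known to activate, had 68, 39, 29, 39 and 36 counts in control replicates 1 to 5 and 3, 1, 1, 0 and 0 in cdKO replicates 1 to 5 (exact two-sided permutation p = 0.00794, the smallest that groups of 5 allow). Oc1 over all its exons was at 5.85 ± 2.82 CPM in control and 2.71 ± 1.26 CPM in cdKO samples (SD, n = 5 each), with overlapping groups (exact permutation p = 0.0556). Summed MN markers lay at 511 to 644 CPM in control and 280 to 746 CPM in cdKO samples, and summed neural progenitor markers at 2298 to 3243 and 2207 to 4151 CPM, so transcripts of both were present.

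Transcripts of most of these genes were detected at this age, at levels that ran from low to high. In control samples 32 of the 38 genes had a mean of at least 1 CPM and 17 had at least 10 CPM (Syt4 and Syn3 among them only through bins shared with other genes), and the number at 1 CPM or more was also 32 in cdKO samples. Counts exceeded 3 in all 10 samples for 36 genes, where 3 counts correspond to 0.0288 to 0.0591 CPM depending on the sample. The exceptions were Sv2b, which did so in 4 control and 5 cdKO samples, and Syt12, in 3 control and 4 cdKO samples. The levels spanned a wide range, from Sncg at 260.5 ± 218.6 CPM per kb to Syt12 at 0.0134 ± 0.0136 CPM per kb (control mean, SD, n = 5). Sncg, Syt11 and Rab3a held the 3 highest places, in that order, by all bins, by the longest bin and by the bin with the most counts. Below them by all bins came Syp at 8.40, Snap25 at 8.06, Vamp2 at 7.67 and Syt13 at 6.95 CPM per kb. Their ranges over samples overlapped, so their order is not resolved. Places below the top 3 also depended on the length used. By the longest bin Syp stood 24th and Snap25 25th, in place of 4th and 5th. By the bin with the most counts Nrxn2 stood 8th and Rims1 27th, in place of 25th and 36th. The lowest after Syt12 by all bins were Sv2c at 0.0435, Rims1 at 0.0558, Nrxn3 at 0.06 and Bsn at 0.068 CPM per kb. Among all genes tested, ranked per kb, these stood at the 1.98th, 3.12th, 3.46th and 4.09th percentiles. Sncg stood at the 98.9th, Rab3a at the 82.8th, Syp at the 70.0th and Syt1 at the 28.6th percentile. The share of all genes past 1 or 10 CPM was not counted.

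**Figure D1:**
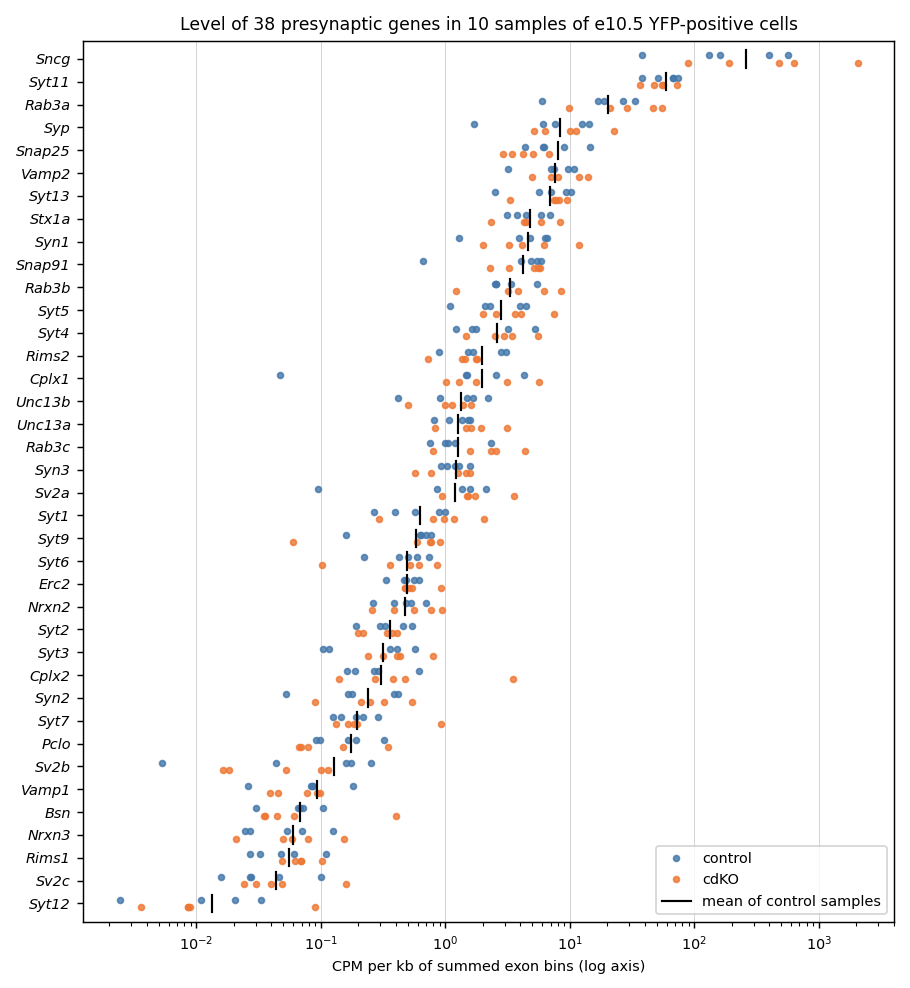
Level of each of the 38 genes in the 5 control (blue) and 5 cdKO (orange) samples, in CPM per kb of summed exon bins on a log axis, with the control mean as a black bar. Sncg lies highest and Syt12 lowest, the colours overlap for every gene, and a sample with no counts for a gene (control replicate 5 for Syt12) is not drawn.

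No gene of the release machinery passed the test between the groups. The quasi-likelihood test of edgeR, adjusted by Benjamini-Hochberg over 17825 genes, found 0 of the 37 genes that passed the filter on low counts (Syt12 did not) with an adjusted p under 0.05, as it did for 0% of all genes tested, and the smallest adjusted p was 0.939. Oc1 and Oc3 were thus not called by it either, while the paper lists both with an adjusted p under 0.05 in its own comparison. The lack of calls therefore does not show that the 37 genes were unchanged. At an unadjusted p under 0.05, 0 of the 37 were higher in cdKO samples, where 4.16% of all genes were, and 1 was lower, Snap25, where 0.819% of all genes were. The control and cdKO samples overlapped for every one of the 37 genes, while 0.18% of all genes had all cdKO samples above and 0.224% all below the control samples. The exact permutation test of mean log2(CPM + 0.5) gave p under 0.05 for 0 members and for 2.61% of all genes. The fitted log2 fold change was above 0 for 27 genes and below 0 for 10, where it was above 0 for 48.2% of all genes, with a median of 0.26 against -0.02 over all genes. Without cdKO replicate 5 it was above 0 for 23 and below 0 for 14, where it was above 0 for 49.8% of all genes, with a median of 0.20 against -0.00 over all genes. In that fit 0 of the 37 genes had an unadjusted p under 0.05, where 0.601% of all genes were higher and 1.75% lower. The genes were measured in the same samples, so their signs are not independent. These shares of all genes also apply to the counts of genes fitted higher or lower by role below. The counts leave wide errors: the common biological coefficient of variation was 0.539, and the standard error of a fitted log2 fold change ran from 0.28 for Syt11 to 0.80 for Sv2b. In these bulk samples, fewer cells of a type and less RNA per cell cannot be told apart.

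**Figure D2:**
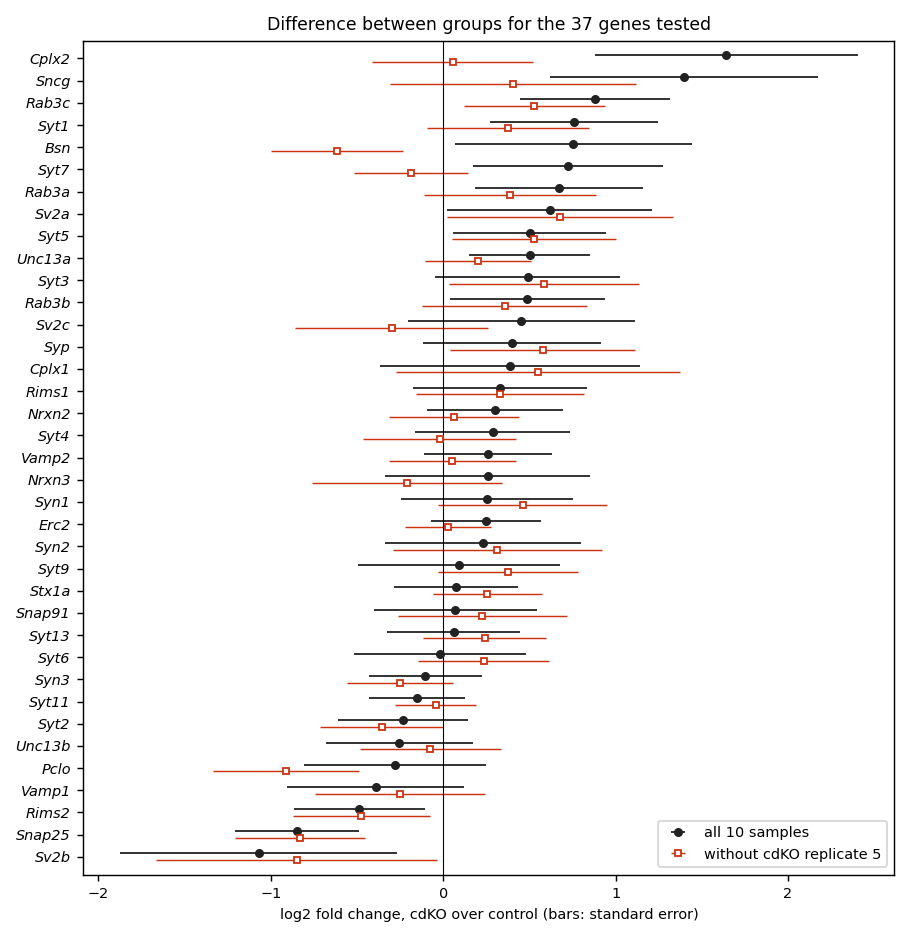
Fitted log2 fold change of cdKO over control for the 37 genes tested, with all 10 samples (black circles) and without cdKO replicate 5 (red squares). Bars are standard errors, and Cplx2 and Sncg, highest with all samples at 1.64 and 1.40, moved to 0.06 and 0.40 without it.

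Among the 6 SNARE proteins and complexins, Snap25 had the smallest p of all 38 genes. Snap25 (ENSMUSG00000027273, chr2:136713453-136782428, GRCm38) encodes SNAP-25, which contributes a pair of helices to the SNARE bundle. It was at 99.1, 29.9, 41.4, 61.1 and 42.2 CPM in control replicates 1 to 5 and at 23.4, 19.7, 34.3, 46.0 and 28.6 CPM in cdKO replicates 1 to 5. Control replicate 1 was far above the rest, and 2 cdKO samples lay above the lowest control sample, so the groups overlapped. The means were 54.7 ± 27.2 and 30.4 ± 10.3 CPM (SD, n = 5 each), with a log2 fold change of -0.85 (SE 0.36, edgeR quasi-likelihood adjusted p = 0.939). The unadjusted edgeR p was under 0.05 and the exact permutation test gave p = 0.0714. Without cdKO replicate 5 the log2 fold change was -0.83 (SE 0.38), and in the fits that left out each sample in turn it ran from -1.08 to -0.52. The unadjusted edgeR p was 0.05 or more without control replicate 1, control replicate 4, cdKO replicate 1, cdKO replicate 2 or cdKO replicate 5. The sum of 10 pan-neuronal markers was at 3270 CPM in control and 4413 CPM in cdKO samples on average (exact permutation p = 0.333), while summed MN markers averaged 580.0 and 493 CPM (exact permutation p = 0.254). Within these lists the genes differed in direction: Tubb3 averaged 634 and 842 CPM but Elavl4 462 and 372 CPM, and Isl1 averaged 225 and 127 CPM but Lhx3 96.7 and 110.05 CPM. The paper reports that Isl1 is reduced in lateral MNs of the conditional mutants, so the MN sum does not measure MN content alone. The part of these markers in the Snap25 values was not tested.

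Snap25 is also spliced: mutually exclusive exons 5a and 5b, each of 118 bases on the plus strand, encode alternative versions of a stretch of the protein that carries its membrane-anchoring cysteines. Exon 5a predominates early in neural development and exon 5b later. They lie at chr2:136769743-136769860 (5a) and chr2:136770057-136770174 (5b) of GRCm38, and their sequences from the GENCODE M21 transcripts are shown because reads can be assigned to one or the other by the 31 bases that differ, in capitals (73.7% identity).
Snap25 exon 5a: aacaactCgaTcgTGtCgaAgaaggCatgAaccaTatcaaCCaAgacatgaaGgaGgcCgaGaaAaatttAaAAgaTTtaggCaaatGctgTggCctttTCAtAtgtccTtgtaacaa
Snap25 exon 5b: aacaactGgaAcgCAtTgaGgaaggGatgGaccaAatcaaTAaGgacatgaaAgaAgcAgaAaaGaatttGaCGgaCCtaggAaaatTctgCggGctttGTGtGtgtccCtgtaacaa

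Exon 5a took 40.9, 52.5, 53.3, 52.9 and 59.6% of the counts on the pair of exons in control replicates 1 to 5 and 54.3, 65.5, 55.8, 60.9 and 42.0% in cdKO replicates 1 to 5. Both exons were thus in use in every sample, and the groups overlapped. The means were 51.8 ± 6.76% and 55.7 ± 8.85% (SD, n = 5 each, exact two-sided permutation p = 0.437). The sample with the most counts, control replicate 1 with 804, had a share of 40.9% (Wilson 95% interval 37.6 to 44.4%), and the one with the fewest, cdKO replicate 5 with 81, had 42.0% (31.8 to 52.8%). Those intervals cover counting error only. Without cdKO replicate 5 the cdKO mean was 59.1 ± 5.09% (SD, n = 4, exact permutation p = 0.119 over 126 arrangements).

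**Figure D3:**
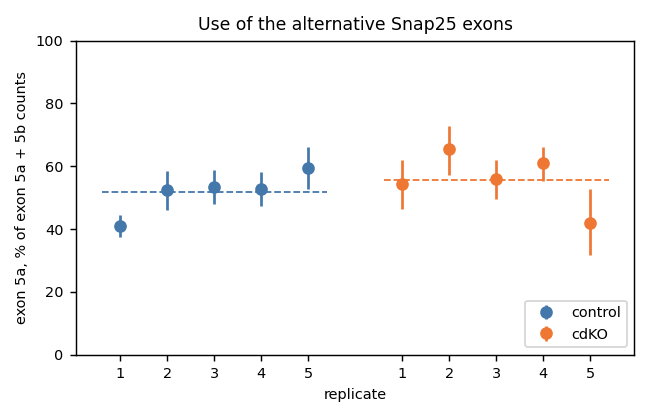
Share of Snap25 exon 5a in the counts on exons 5a and 5b, in percent, for each replicate of control (blue) and cdKO (orange) samples. Vertical bars are Wilson 95% intervals of the counts and dashed lines are group means, 51.8% and 55.7%.

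The partners of SNAP-25 showed smaller differences than their errors. Stx1a, the plasma membrane syntaxin, was at 12.9 ± 4.16 CPM in control and 13.5 ± 5.97 CPM in cdKO samples (log2 fold change 0.07, SE 0.36, and 0.26 without cdKO replicate 5). Vamp2, the main vesicle synaptobrevin of central synapses, was at 29.2 ± 11.3 and 35.0 ± 14.2 CPM (0.26, SE 0.37, and 0.05 without it), and its relative Vamp1, used at many mature motor terminals, was low at 0.943 ± 0.573 and 0.717 ± 0.278 CPM (-0.39, SE 0.51, and -0.25 without it). The complexins clamp and promote fusion. Cplx1 ranged from 0.10 CPM in control replicate 5 to 12.5 CPM in cdKO replicate 1, a 120.3-fold range and the widest of the 37 genes tested.

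Cplx2 (ENSMUSG00000025867, chr13:54371349-54383917) had the highest fitted log2 fold change, 1.64 (SE 0.76, edgeR adjusted p = 0.939). It was at 3.02, 0.80, 0.93, 1.41 and 1.32 CPM in control replicates 1 to 5 and at 0.69, 1.88, 2.34, 1.34 and 17.2 CPM in cdKO replicates 1 to 5. The last value was far above the rest: the other 4 cdKO samples lay between 0.69 and 2.34 CPM, among the control samples but for the lowest, and without cdKO replicate 5 the log2 fold change was 0.06 (SE 0.47). The permutation test, which uses all 10 samples, gave an exact p of 0.429.

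The synaptotagmins were dominated by Syt11. Syt11 (ENSMUSG00000068923, chr3:88744700-88775164), a synaptotagmin that does not bind calcium and is linked to vesicle and membrane recycling, was at 350.4, 267.5, 352.9, 383.1 and 199.5 CPM in control replicates 1 to 5 and at 288.7, 294.4, 247.7, 376.6 and 191.9 CPM in cdKO replicates 1 to 5. Control replicate 5 and cdKO replicate 5 were the lowest, and the groups overlapped over most of their range. The log2 fold change was -0.15 (SE 0.28, edgeR adjusted p = 0.997), or -0.04 without cdKO replicate 5, and its highest sample was 2.00 times its lowest, the narrowest range of any of the genes, whose median was 6.98. Its level per kb, 59.7 ± 14.5 CPM per kb in control samples, stood at the 93.3rd percentile of all genes tested. In cdKO replicate 5, 69.2% of its counts lay in the bins of the last 1000 exonic bases, against 26.2 to 28.4% in the other samples. Here and below these are whole bins taken from the 3′ end until they reached at least 1000 bases.

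The other synaptotagmins were far lower. Syt1, the fast calcium sensor of mature synapses, was at 8.22, 3.30, 4.72, 7.43 and 2.22 CPM in control replicates 1 to 5 and at 9.76, 2.44, 8.16, 6.59 and 16.9 CPM in cdKO replicates 1 to 5. Its control mean was 0.621 ± 0.311 CPM per kb, and the groups overlapped (log2 fold change 0.76, SE 0.49, and 0.38 without cdKO replicate 5). Syt2, the fast sensor of many hindbrain and spinal synapses, was at 0.362 ± 0.135 CPM per kb (-0.23, SE 0.38, and -0.36 without that sample). Syt13 came after Syt11 among the 11 synaptotagmins, at 6.95 CPM per kb, followed by Syt5 at 2.78 and Syt4 at 2.61 CPM per kb. Syt13, which lacks the calcium-binding residues, was at 26.2 ± 11.6 CPM in control and 27.3 ± 8.82 CPM in cdKO samples (0.06, SE 0.39, and 0.24 without cdKO replicate 5). Syt4, a form found on secretory vesicles and Golgi, was at 10.2 ± 6.48 and 12.4 ± 5.96 CPM, but 89.1% of its counts were on bins that also belong to the antisense gene Gm26658, and these counts did not use strand. Its fitted log2 fold change of 0.29 (SE 0.45) was -0.24 on bins of a single gene, where its control mean was 1.35 CPM, and -0.02 without cdKO replicate 5.

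Syt5, a vesicle synaptotagmin, averaged 6.61 ± 3.33 CPM in control and 9.36 ± 5.03 CPM in cdKO samples (log2 fold change 0.50, SE 0.44). Syt3, Syt6 and Syt9 had log2 fold changes of 0.49, -0.02 and 0.09, with standard errors between 0.50 and 0.59, and of 0.59, 0.23 and 0.38 without cdKO replicate 5. Syt7, a slow high-affinity sensor, was between 0.86 and 2.02 CPM in the control samples and between 0.92 and 1.37 CPM in 4 cdKO samples, but at 6.45 CPM in cdKO replicate 5. Its log2 fold change was 0.72 (SE 0.55) with that sample and -0.19 without it. Syt12 had 0 to 19 counts in the control samples and 1 to 39 in the cdKO samples and was not tested. Of the 10 synaptotagmins tested, 7 were fitted higher and 3 lower, with a median log2 fold change of 0.19 (0.24 without cdKO replicate 5).

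The 11 vesicle proteins included the gene with the highest level and the widest absolute spread. Sncg (ENSMUSG00000023064, chr14:34370274-34374789) encodes gamma-synuclein, a small protein of axons and terminals in peripheral and motor neurons. It was at 485.2, 342.2, 112.7, 137.2 and 32.4 CPM in control replicates 1 to 5 and at 537.6, 76.4, 405.7, 160.5 and 1746 CPM in cdKO replicates 1 to 5. The range over the 10 samples was 53.8-fold, cdKO replicate 5 being the highest and control replicate 5 the lowest, and the other 4 cdKO samples spread over much the same range as the control samples. The means were 221.9 ± 186.3 and 585.3 ± 674.9 CPM, a log2 fold change of 1.40 (SE 0.78, edgeR adjusted p = 0.953) that became 0.40 without cdKO replicate 5. Sncg was above Syt11 in CPM per kb in 9 of 10 samples, the exception being control replicate 5 (38.1 and 38.3 CPM per kb).

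Rab3a, the most abundant Rab GTPase of synaptic vesicles, was at 73.9, 59.7, 37.4, 41.7 and 13.4 CPM in control replicates 1 to 5 and at 103.3, 21.9, 64.5, 47.1 and 123.3 CPM in cdKO replicates 1 to 5. As for Sncg, control replicate 5 was lowest and cdKO replicate 5 highest, and the groups overlapped (log2 fold change 0.67, SE 0.49, and 0.39 without cdKO replicate 5). Its relative Rab3c was at 19.7, 10.1, 8.99, 8.40 and 6.34 CPM in control replicates 1 to 5 and at 21.7, 6.76, 19.8, 13.5 and 36.8 CPM in cdKO replicates 1 to 5. Of those 5 cdKO samples, 3 lay above every control sample and 2 among them (log2 fold change 0.88, SE 0.44, edgeR adjusted p = 0.939), and the value without cdKO replicate 5 was 0.53 (SE 0.41). Rab3b was at 11.6 ± 4.47 and 16.2 ± 10.01 CPM (0.49, SE 0.45).

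Syp, the integral vesicle protein synaptophysin, was at 65.0, 73.7, 31.6, 39.7 and 8.92 CPM in control replicates 1 to 5 and at 118.1, 33.0, 58.8, 52.2 and 26.8 CPM in cdKO replicates 1 to 5. Control replicate 5 was lowest and cdKO replicate 1 highest, with overlap between the groups (log2 fold change 0.40, SE 0.52). Of its counts in cdKO replicate 5, 68.5% were in the bins of the last 1000 bases, against 24.9 to 29.7% in the other samples, and 28.4% of its counts over all samples were on a bin shared with the antisense gene Gm14703. Syn1, which tethers vesicles to actin, was at 15.1 ± 7.04 and 18.0 ± 12.7 CPM (0.25, SE 0.50, and 0.46 without cdKO replicate 5), with 21.3% of its counts on bins shared with Araf. Syn2 was at 1.69 ± 1.09 and 1.98 ± 1.17 CPM (0.23, SE 0.57), with 12.7% on bins shared with Timp4. Syn3 read 14.9 ± 3.14 and 13.8 ± 5.36 CPM, but 84.3% of its counts were on a bin shared with Timp3 on the opposite strand, and on bins of a single gene its control mean was 2.25 CPM and its log2 fold change 0.25 in place of -0.10, which was -0.25 without cdKO replicate 5.

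The SV2 proteins are vesicle glycoproteins. Sv2a, the widely used form, was at 5.58 ± 3.56 CPM in control and 8.57 ± 4.59 CPM in cdKO samples, with its lowest value, 0.44 CPM, in control replicate 5 (log2 fold change 0.62, SE 0.59). Sv2b was at 2.11, 1.33, 0.36, 1.46 and 0.04 CPM in control replicates 1 to 5 and at 0.15, 0.44, 0.84, 0.95 and 0.14 CPM in cdKO replicates 1 to 5. It had the lowest fitted log2 fold change, -1.07, with an SE of 0.80 (edgeR adjusted p = 0.997), and the groups overlapped. Sv2c, with 10 to 93 counts in a sample, was at 0.404 ± 0.313 and 0.561 ± 0.520 CPM, and its log2 fold change of 0.45 (SE 0.66) was -0.30 without cdKO replicate 5. Of the 11 vesicle proteins, 9 were fitted higher and 2 lower, and 8 and 3 without cdKO replicate 5.

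**Figure D4:**
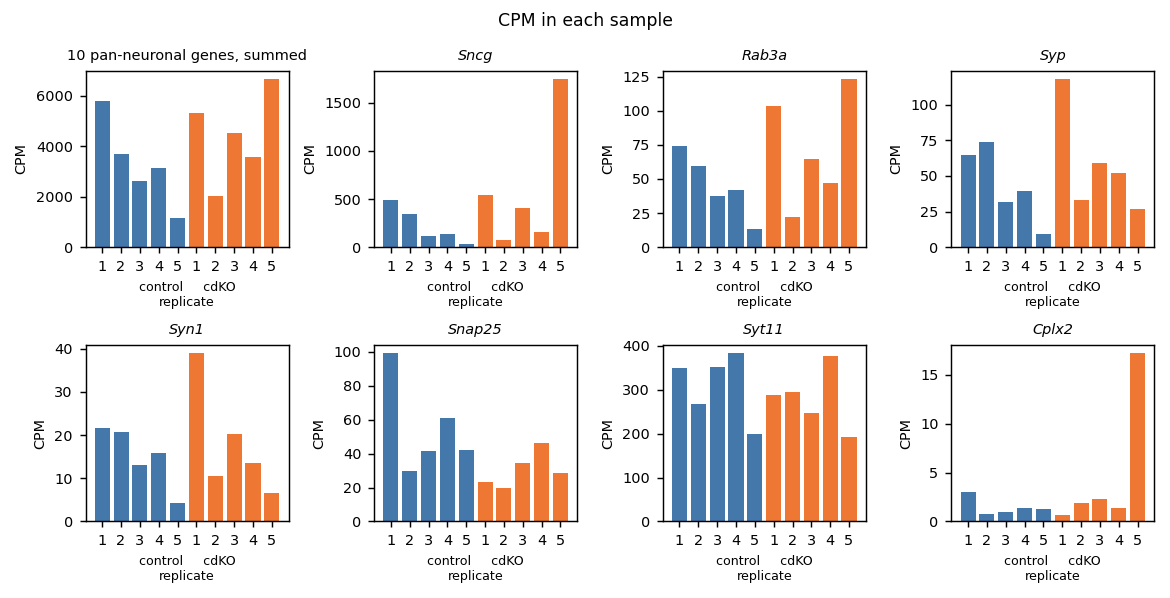
CPM in each replicate of control (blue) and cdKO (orange) samples for the 10 pan-neuronal marker genes summed and for Sncg, Rab3a, Syp, Syn1, Snap25, Syt11 and Cplx2, each panel with its own axis from 0. Control replicate 5 is lowest for the summed markers, Sncg, Rab3a, Syp and Syn1, and the highest Cplx2 and Sncg bars are those of cdKO replicate 5.

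By all bins the active zone scaffolds were low per kb in control samples, with Bsn at 0.068, Pclo at 0.173 and Erc2 at 0.491 CPM per kb. By the bin with the most counts they were at 0.193, 1.01 and 2.56 CPM per kb. Bsn (Bassoon), a giant scaffold of the active zone, was at 1.08, 0.48, 1.14, 1.04 and 1.67 CPM in control replicates 1 to 5 and at 0.71, 0.57, 0.55, 0.97 and 6.39 CPM in cdKO replicates 1 to 5. Its log2 fold change was 0.76 (SE 0.69) with cdKO replicate 5, which was above every other sample, and -0.61 without it. Pclo (Piccolo), its relative, was at 4.33, 2.06, 2.21, 7.17 and 3.68 CPM in control replicates 1 to 5 and at 1.78, 1.49, 1.56, 3.41 and 7.83 CPM in cdKO replicates 1 to 5. The highest Pclo value was again that of cdKO replicate 5, and the log2 fold change was -0.28 (SE 0.53) with it and -0.91 without it (SE 0.42), while 58.3% of the counts lay on bins shared with other genes, mainly the antisense gene Gm26918. Erc2, which binds RIM, was at 4.76 ± 1.03 and 5.66 ± 1.84 CPM (0.25, SE 0.32, and 0.03 without cdKO replicate 5).

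The priming factors Unc13b and Unc13a were at 1.34 and 1.27 CPM per kb in control samples. Unc13b (Munc13-2) was at 34.3, 38.2, 20.7, 50.1 and 9.51 CPM in control replicates 1 to 5 and at 25.8, 22.7, 36.7, 31.4 and 11.5 CPM in cdKO replicates 1 to 5. The replicates numbered 5 were the lowest of their groups, which overlapped throughout (log2 fold change -0.25, SE 0.42, and -0.07 without cdKO replicate 5). In cdKO replicate 5, 83.4% of the Unc13b counts lay in the bins of the last 1000 bases, against 7.06 to 24.0% in the other samples. Unc13a (Munc13-1), the main priming factor of excitatory synapses, was at 15.98 ± 4.10 and 22.6 ± 10.7 CPM (0.50, SE 0.35, and 0.20 without cdKO replicate 5), with 24.9% of its counts on a bin shared with Colgalt1. Rims1, the best known RIM, was at 0.395 ± 0.237 and 0.498 ± 0.141 CPM (0.33, SE 0.50), and Rims2 at 10.02 ± 4.57 and 7.16 ± 2.20 CPM (-0.49, SE 0.38). Per kb their control means were 0.0558 and 1.99 CPM per kb. Of the 7 active zone and priming genes 4 were fitted higher and 3 lower, and 3 and 4 without cdKO replicate 5.

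Of the 3 recycling and adhesion genes, Snap91, which encodes the clathrin adaptor AP180, was at 50.04, 44.5, 37.2, 53.5 and 6.003 CPM in control replicates 1 to 5 and at 50.8, 29.5, 46.7, 53.1 and 20.9 CPM in cdKO replicates 1 to 5. Apart from the replicates numbered 5 the groups covered nearly the same values (log2 fold change 0.07, SE 0.47, and 0.23 without cdKO replicate 5). Of its counts in cdKO replicate 5, 77.4% lay in the bins of the last 1000 bases, against 12.6 to 36.7% in the other samples. Of the neurexins, presynaptic adhesion proteins, Nrxn2 was at 6.51 ± 2.24 and 8.04 ± 3.83 CPM (0.30, SE 0.39, and 0.06 without cdKO replicate 5) with 46.6% of its counts on bins shared with other genes, and Nrxn3 was at 0.757 ± 0.516 and 0.909 ± 0.629 CPM (0.26, SE 0.59, and -0.21 without it).

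Particular samples were high or low for many of the genes at once. Control replicate 5 had the lowest value of the 10 samples for 21 of the 37 genes (56.8%), where it was lowest for 16.3% of all genes tested, and cdKO replicate 5 had the highest for 15 (40.5%, against 29.5% of all genes). cdKO replicate 1 had the highest for 9 (24.3%, against 14.7%). Summed over the 38 genes, the level was 426 CPM in control replicate 5 and 825 to 1433 CPM in the other control samples, and 2480 CPM in cdKO replicate 5 and 662 to 1479 CPM in the other cdKO samples. Most of the high sum in cdKO replicate 5 was Sncg. Without Sncg that sample was at 734 CPM, within the 586 to 942 CPM of the other cdKO samples. Control replicate 5 without Sncg was at 394 CPM, below the 712 to 948 CPM of the other control samples. Summed pan-neuronal markers were lowest and highest in the same samples. They were at 1147 CPM in control replicate 5 against 2611 to 5768 CPM in the other control samples. In cdKO replicate 5 they were at 6655 CPM against 2022 to 5312 CPM in the other cdKO samples. Stmn2 (2548 CPM) and Gap43 (1176 CPM) made most of the sum in cdKO replicate 5. Elavl3, Dcx and Ina were also at their highest there. Tubb3, Nefl, Nefm, Elavl4 and Map2 lay within the range of the other cdKO samples. Control replicate 5 also had the highest control sum of neural progenitor markers, 3243 CPM, while the highest of all samples was 4151 CPM in cdKO replicate 5. The genes of that list differed in control replicate 5. Hes5 (1940 CPM), Pax6 (85.6 CPM) and Mki67 (75.7 CPM) were at their highest of the 10 samples there. Vim (447 CPM), Fabp7 (72.6 CPM) and Nes (64.6 CPM) were at their lowest. The sum of V3 interneuron markers in control replicate 5 was 99.9 CPM against 23.8 to 39.2 CPM in all other samples. Nkx2-9 alone made 84.5 CPM of it. Sim1 (0.148 CPM) and Uncx (0.0444 CPM) were at their lowest of the 10 samples and Slc17a6 had no counts there. The part of these cell types in the values was not tested. Along the gene, 24 of 34 genes in which this could vary had their highest share of counts in the bins of the last 1000 bases in cdKO replicate 5. The others did not, such as Vamp2, with 41.7% in that sample against 46.2 to 62.1% in the other samples. The same count over all genes was not made.

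Markers of cell types outside the neural tube were also examined. Summed sensory neuron markers were at 18.0 to 48.6 CPM in control and 13.3 to 35.5 CPM in cdKO samples, neural crest glia markers at 99.1 to 250.3 and 95.5 to 227.6 CPM, macrophage markers at 3.14 to 5.27 and 3.30 to 6.94 CPM and endothelial markers at 0.931 to 3.25 and 0.94 to 2.09 CPM. Erythroid markers were at 0.902 to 19.0 and 2.83 to 66.2 CPM, highest in cdKO replicate 5, and mesenchyme markers at 6.15 to 18.3 and 9.75 to 21.3 CPM. Ednrb made most of the neural crest glia sum, with 166 of 190 CPM on average in control samples. The glial marker Sox10 averaged 0.0965 CPM in control and 0.153 CPM in cdKO samples, and the macrophage gene C1qc had no counts in any sample. Their part in the presynaptic values was not tested.

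A wider list of the pathway gave the same picture, with most genes detected and no called difference. It named 64 further presynaptic genes, of which 63 were found, 50 had a control mean of at least 1 CPM and 59 were tested. With edgeR 0 of the 59 passed the adjusted threshold and 0 had an unadjusted p under 0.05 (0 higher and 0 lower, against 4.16% and 0.819% of all genes). Of the 59, 38 were fitted higher and 21 lower, where 48.2% of all genes were fitted higher, with a median log2 fold change of 0.09. Without cdKO replicate 5, 0 were higher and 1 was lower at an unadjusted p under 0.05, against 0.601% and 1.75% of all genes: Doc2b, a calcium sensor of release named after its values were seen, with a log2 fold change of -2.65 in place of -0.78 (SE 0.95) and control and cdKO means of 0.218 ± 0.168 and 0.133 ± 0.224 CPM over all samples. Among its highest levels in control samples were those of genes that serve membrane traffic in all cells. Napa, the SNARE-recycling adaptor alpha-SNAP, was at 111.8 ± 20.1 CPM per kb, Clta (clathrin light chain) at 74.8 ± 14.4, Sh3gl1 (an endophilin) at 60.2 ± 8.55 and Snap47 at 45.8 ± 15.6 CPM per kb.

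Among the genes of the wider list with the smallest p, Clta (log2 fold change 0.53, SE 0.31), Vamp8 (0.77, SE 0.46) and Syngr3 (0.97, SE 0.59) were fitted higher and Erc1 (-0.47, SE 0.29) lower, each with an edgeR adjusted p of 0.962. Without cdKO replicate 5 the log2 fold changes were 0.26 for Clta, 0.20 for Vamp8, 0.90 for Syngr3 and -0.49 for Erc1.

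The promoters of the members were searched on both strands for a pair of motifs with the core letters of Onecut binding sites, ATCAAT and the palindrome ATCGAT. On the other strand the first of them reads ATTGAT. The windows ran from 250 bases before to 50 after each RefSeq start (GRCm38.p6). Windows were found for 28 of the 38 genes, 39 windows in all, and not for Syt4, Syt5, Syt7, Syt12, Syt13, Snap25, Vamp2, Syn3, Rims2 and Nrxn2. ATCAAT, on either strand, was in 2 of the 39 windows (5.13%) and in 7.54% of 32851 windows of all genes, and ATCGAT in 1 (2.56%), that of Syt2, and in 0.925%. The ATCAAT windows belonged to Sncg, the gene with the highest level, and Unc13b, whose groups differed by less than their error. They are shown with the 6 letters in capitals, whose first base lies at -19 for Sncg (chr14:34374620-34374919, minus strand) and at -134 for Unc13b (chr4:43058703-43059002, plus strand) from the start. A match describes letters in these windows only.
Sncg promoter: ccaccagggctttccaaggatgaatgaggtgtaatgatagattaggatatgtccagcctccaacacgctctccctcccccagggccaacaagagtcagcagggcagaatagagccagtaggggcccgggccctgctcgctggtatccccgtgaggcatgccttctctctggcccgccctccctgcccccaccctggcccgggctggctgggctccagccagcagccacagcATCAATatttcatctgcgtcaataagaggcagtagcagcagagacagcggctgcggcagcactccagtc
Unc13b promoter: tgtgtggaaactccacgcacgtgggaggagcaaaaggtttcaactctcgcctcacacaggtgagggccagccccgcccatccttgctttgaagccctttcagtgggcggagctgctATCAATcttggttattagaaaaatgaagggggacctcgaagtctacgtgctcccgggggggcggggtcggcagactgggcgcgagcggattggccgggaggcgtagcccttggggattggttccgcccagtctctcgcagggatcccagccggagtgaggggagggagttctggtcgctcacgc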

How the data were processed

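For each of the 10 samples the authors deposited raw counts of reads on 425461 exon bins, not normalized. The submitters' processing notes name bcl2fastq 2.17, Trimmomatic 0.36, STAR 2.5.2b, Subread 1.5.2, DESeq2 and GRCm38, with no roles given. Reads were counted on every bin they crossed and without strand, so a gene's sum grows with its number of bins and includes reads of overlapping antisense genes.

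Bins were summed to genes by position with GENCODE M21 (49384 of 49644 gene identifiers were found). Bins of joined units went to the gene whose exons cover them, to the protein-coding one where there was only 1, and 4001 bins with 1.24% of the counts (2.17% in cdKO replicate 5) were left out. Counts were filtered with filterByExpr (minimum count 10), scaled by TMM to CPM and compared between groups by the quasi-likelihood test of edgeR 4.0.16 (R 4.3.3), adjusted by Benjamini-Hochberg over 17825 genes, with a threshold of 0.05. Exact two-sided permutation tests of mean log2(CPM + 0.5) used every arrangement of the 10 samples. Alternatives, including DESeq2 1.42.0 and limma 3.58.1, are described at the end. The scripts were tested on simulated data. Intervals and the floor of 3 counts cover counting error only. Duplicate libraries were looked for within each group and none was found.

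Samples were grouped and numbered by their titles, while the column names of the files count 1 higher in all 10 samples, in the same order within each group. The members and the lists were chosen with earlier results of these data known. The genes named are all 38 members, the 5 genes of the wider list with the smallest p and the 5 with the highest control level per kb, any of its genes past the threshold, Oc1 and Oc3, and single markers at or near 0. Other single markers and Doc2b were named after their values were seen. Some genes that this rule names are not reported here. The Snap25 exons were chosen after their counts were seen. The sample descriptions number the stage differently in each sample, and the e10.5 of the titles and the paper was used.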

Additional observations from a re-analysis of the deposited data

Results flagged for a closer look

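Of the 76 groups of 5 samples (38 genes, control and cdKO), 11 had a highest or lowest sample separated from the nearest other by more than Dixon's 95% critical share of the range, 0.71. For independent groups of normal values about 1 in 20, or 3.8, would be flagged. These were CPM values of genes that share the same samples, so 3.8 is not an expected count here. In 6 of them the sample was cdKO replicate 5: Syt7 at 6.45 CPM against at most 1.37 in the other cdKO samples, Cplx2 at 17.2 against at most 2.34, Sv2c at 1.48 against at most 0.453, Sncg at 1746 against at most 537.6, Bsn at 6.39 against at most 0.966 and Erc2 at 8.91 against at most 5.27 CPM. In 3 of them it was control replicate 1: Cplx2 at 3.02 CPM against at most 1.41 in the other control samples, Rab3b at 19.3 against at most 11.8 and Rab3c at 19.7 against at most 10.1 CPM. Syt12 was at 0.496 CPM in cdKO replicate 1 against at most 0.0492, and Syt9 at 0.636 CPM in control replicate 5 against at least 2.49. The cause of these values was not tested.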

How the results depend on the processing

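The count of genes past the adjusted threshold stayed at 0 of the members tested under every alternative, the smallest adjusted p being 0.571. Over all genes, 20 of 29523 passed with the DESeq2 Wald test and 13 of 17825 with quality weights in limma-voom. With limma-voom 3 of 17825 passed, and without control replicate 5 it was 4 of 18119. In each other setting 0 or 1 passed. The count at an unadjusted p under 0.05 was 1 (Snap25, lower) with all samples. It was 2 (Snap25, lower, and Cplx2, higher) without a count filter (1254 higher and 863 lower of 30152 genes in all) and with at least 10 counts in every sample (760 and 109 of 14643). With each sample left out it was 0 to 4. Without control replicate 1 it was 3 (Cplx2, Rab3c and Sncg, all higher, with 542 and 165 of 18119 genes in all). Without cdKO replicate 2 it was 4 (Syt1, Cplx2, Rab3c and Sncg, all higher, with 1133 and 205 of 18160). Without cdKO replicate 1 it was 1 (Cplx2, higher, with 890 and 128 of 18187). Snap25 was not among the genes called in these 3 fits. The count was 0 without control replicate 4 (227 and 83 of 18086) and 0 without cdKO replicate 5 (109 and 318 of 18147). The median log2 fold change, 0.26 with all samples, was 0.07 to 0.49 with each sample left out, 0.08 with library size only and 0.12 with sample quality weights. For the wider list, 0 with all samples, the count was 2 with the DESeq2 Wald test (959 and 467 of 29523 genes), 5 with quality weights in limma-voom (836 and 694 of 17825), 1 without a filter, 1 with the bins of the last 1000 bases (477 and 136 of 16305) and 0 to 3 with each sample left out. Leaving out the members with 10% or more of their counts on bins of other genes, a choice made after seeing the data, left 1 of 29. The median over all genes with library size only was -0.15, against -0.02.

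The log2 fold change changed sign for 21 of 37 genes in some alternative and for 16 in none. With library size only it was -0.0465 for Syt13, -0.0365 for Stx1a, -0.053 for Snap91 and -0.0185 for Nrxn3. With limma-voom it was -0.11 for Syt9, and with sample quality weights 0.0484 for Syt6, -0.0317 for Syt7, -0.12 for Vamp2, -0.0407 for Rab3b, 0.15 for Unc13b, -0.62 for Bsn, -0.0519 for Nrxn2 and -0.25 for Nrxn3. On bins of a single gene it was -0.24 for Syt4 and 0.25 for Syn3. On the single highest bin it was 0.10 for Syt6, -0.20 for Syt9, 0.12 for Unc13b and -0.10 for Erc2, and on the bins of the last 1000 bases 0.0768 for Syt6, -0.19 for Syt9 and 0.0623 for Unc13b. With each sample left out the values that changed sign ran from -0.021 to 0.71 for Syt4, -0.36 to 0.23 for Syt6, -0.19 to 0.91 for Syt7, -0.15 to 0.38 for Syt9, -0.15 to 0.24 for Syt13, -0.18 to 0.26 for Stx1a, -0.13 to 0.89 for Cplx1, -0.24 to 0.46 for Syn1, -0.15 to 0.52 for Syn2, -0.25 to 0.0631 for Syn3, -0.0375 to 0.67 for Syp, -0.30 to 1.02 for Sv2c, -0.61 to 0.98 for Bsn, -0.91 to 0.0476 for Pclo, -0.21 to 0.23 for Snap91 and -0.21 to 0.68 for Nrxn3. The causes were not tested.

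The meaning of the replicate numbers is not stated. Samples of the same number had correlated deviations of -0.317 to 0.428, not all above 0.1, and 4 of 10 samples correlated best with their own number. The mean correlation was 0.146 for samples of the same number and -0.0156 for the other pairs, a lean toward the same number. This lean was not uniform, so the numbers were not taken to pair the samples. With the replicate block 0 members passed the adjusted threshold, 1 had an unadjusted p under 0.05 (Snap25, -0.77), 462 genes in all did against 887, the median was 0.25 and Syt9 was at -0.14.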
